A study of Mus musculus with 4 samples.

Results

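The genes described here are 41 factors that cut, polyadenylate and splice messenger RNA, or that control the polymerase while this happens. They were taken by symbol from the array's gene names and fall into 8 roles, from the cleavage and polyadenylation specificity factor (CPSF) to the kinases of transcription elongation. All 41 were found, on 70 of the 39429 probes and among 29676 gene names. Of the 70 probes, 67 exceeded background on each of the 4 arrays by the scanner software's mark and were tested, and every member had at least 1 tested probe.

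A pre-mRNA receives its 3' end when a protein machine recognizes a polyadenylation signal, cuts the RNA downstream of it and adds a poly(A) tail. CPSF reads the signal hexamer and carries the nuclease, cleavage factor I (CFI) binds upstream of the cut, and the cleavage stimulation factor (CSTF) binds the sequence downstream of it. Many genes carry several such signals, also inside introns, and the U1 snRNP, the kinase CDK12 and the SR proteins are known to influence which of them is used. A short form cut inside an intron shares its upstream exons, but not its last exons, with the long form.

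Astrocyte-enriched cultures (AECs) were prepared from the cortex of newborn ICR mice as mixed glia, and microglia were depleted in all groups with PLX3397, which blocks the receptor on which their survival depends. One group was left untreated (2 samples). The other was kept in glucose-free medium under hypoxia for 15 h (oxygen-glucose deprivation, OGD, 2 samples), so that lack of oxygen and lack of glucose cannot be told apart. Each RNA was labeled with Cy3 and hybridized to its own 60-base oligonucleotide array. By the study's methods, wells held cells of separate cultures from different pups, and the labels do not name the culture of each sample. Microglia are the cells that PLX3397 removes, and oligodendrocyte-lineage cells are known to remain in such cultures.

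Signals are given as normalized log2 signal, which is log2 of the processed signal minus the 75th percentile of its array, so that 0 is the level of that percentile. This choice of scale matters, because untreated arrays had 75th percentiles of 2135 and 2164 and OGD arrays of 887 and 776, while 9 spiked-in control probes differed by only −0.085 on average on the log2 scale (from −0.75 to 0.28). Before normalization, the processed signal of 59 of the 67 member probes was lower on both OGD arrays than on both untreated arrays, against 89.7% of all 28163 probes tested. It was higher on both for 4 member probes, those of *Wdr33* (upstream), *Fip1l1* (brightest), *Cstf2* (upstream) and *Srsf5*, against 5.46% of all probes. Scaling on the control probes lowers every log2 fold change by 1.29, so that the increases below are increases relative to most other transcripts. Levels of RNA in a culture do not tell fewer cells of a type from less RNA per cell. Of 10 astrocyte markers, all 10 were well above background on every array, and their summed level, in units of the 75th percentile, was 149 to 168 in untreated cultures and 228 to 233 after OGD. The corresponding ranges were 1.54 to 1.84 and 1.72 to 1.96 for 10 microglia markers, 29.4 to 29.6 and 25.7 to 26.6 for 10 oligodendrocyte-lineage markers, and 29.3 to 31.4 and 31.9 to 35.0 for 10 neuron markers, of which *Slc17a7* was not above background on any array. For 9 of 10 meningeal fibroblast markers it was 11.3 to 13.3 and 8.84 to 11.4, without *Col1a1*, which had no value on an OGD array. *Dpt*, in this list, was above background on none. Each sum is weighted to its brightest marker, which was *Itgam* for microglia, *Olig1* for the oligodendrocyte lineage and *Stmn2* for neurons. Within each list single markers went both ways. Higher and lower in limma were 6 and 1 of the astrocyte markers, 3 and 2 of 9 microglia markers tested, 4 and 4 of the oligodendrocyte-lineage markers, 4 and 2 of 8 neuron markers tested and 2 and 2 of 7 fibroblast markers tested. Among the oligodendrocyte-lineage markers, *Olig2* (−2.50) and *Mbp* (1.19) were the extremes. The part of these cells in the members' values was not tested.

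After 15 h of OGD, 23 of the 41 members were higher, 9 were lower and 9 passed in neither direction, each read by its brightest probe (limma, adjusted p under 0.05 over all probes). Over all 21009 genes tested, 37.1% were higher and 27.9% were lower by the same rule. The members' median log2 fold change was 0.50, against 0.16 over all genes. This gap of 0.34 was 0.036 with normexp background correction, 0.086 with no filter on dim probes, 0.14 with quantile normalization and 0.15 with the mean over a gene's probes. More than 2-fold changes were found for 6 members upward and 4 downward, against 12.7% and 15.1% of all genes, and 0 members passed the 10-fold limit of the study's methods, which 1.27% of all genes passed. Both OGD arrays were above both untreated arrays for 26 members and below them for 13, against 48.5% and 36.2% of all genes. Counted by probe, 34 of the 67 were higher and 19 lower, against 38.0% and 27.1% of all probes. With 1 array left out in turn, the members' median was 0.38 to 0.56, which was 0.20 to 0.45 above that of all genes. With quantile normalization the count of 23 was 16, since *Cpsf3*, *Pabpc1*, *Snrnp70*, *Srsf6*, *Srsf9*, *Srsf10* and *Tra2a* no longer passed. With scaling on the control probes, 2 members were higher and 34 lower. Shares over all genes were not counted in these 2 settings, so these counts were not set against a background.

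**Figure D1:**
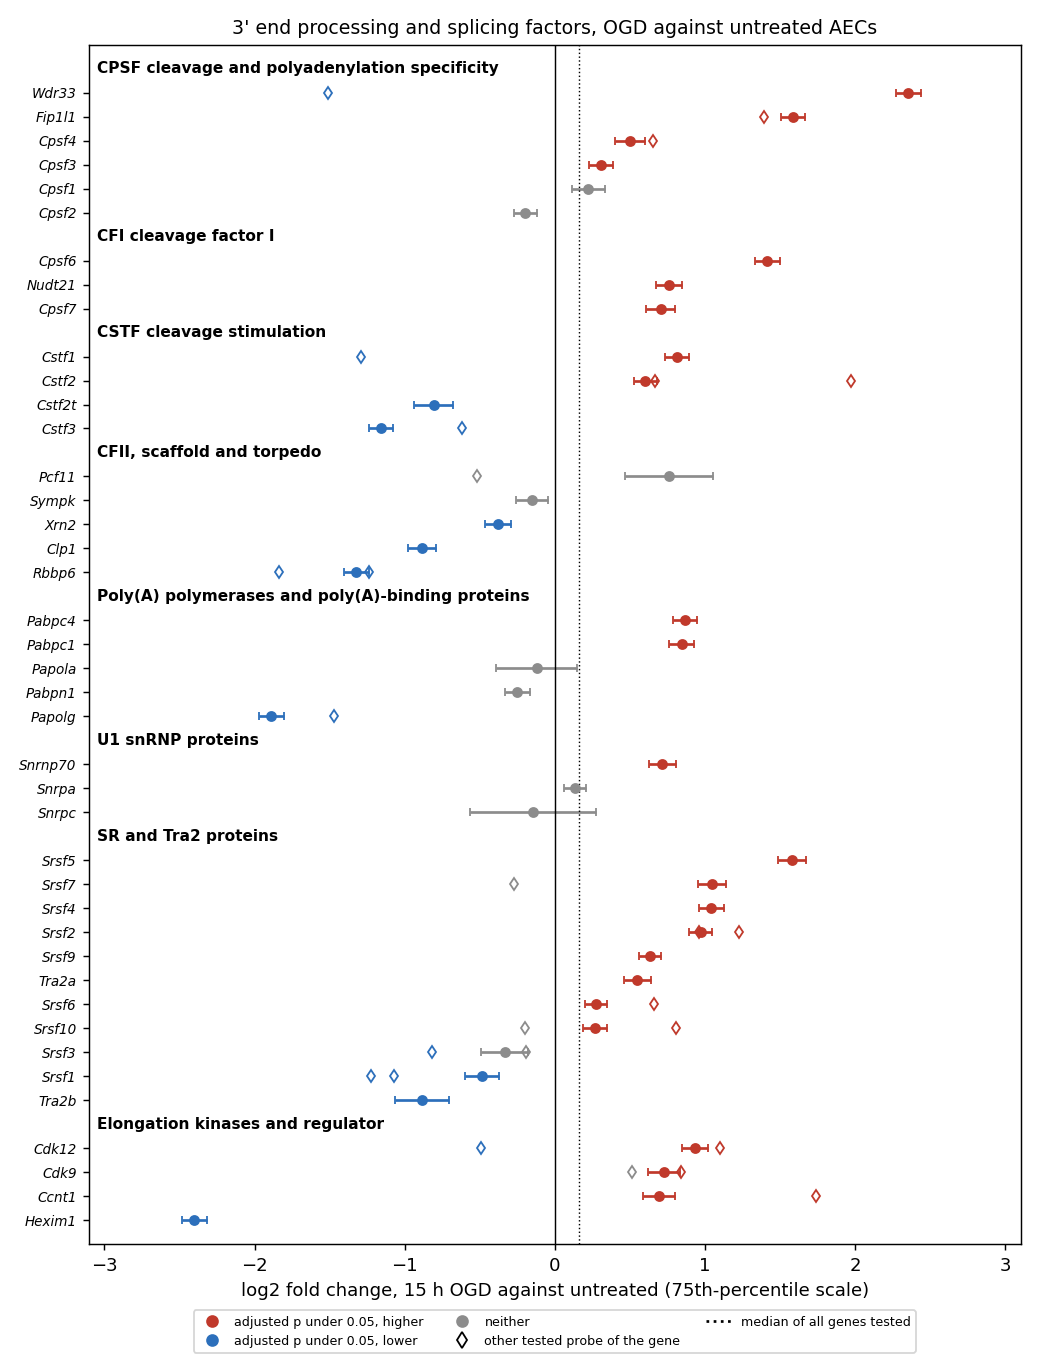
Log2 fold change (OGD against untreated, 75th-percentile scale) of the 41 members by role. Filled circles are the brightest probe of each gene with its standard error (limma, 2 arrays per group), open diamonds are the gene's other tested probes, and colors mark the direction of probes past an adjusted p of 0.05. The dotted line is the median of all genes tested (0.16). *Wdr33* lies farthest to the right (2.35) and *Hexim1* farthest to the left (−2.40), and *Wdr33*, *Cstf1* and *Cdk12* have probes on both sides of 0 that passed the test.

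Of the 6 CPSF subunits, 4 were higher and 0 lower (all genes: 37.1% and 27.9%). *Wdr33*, whose protein contacts the signal hexamer, had the largest increase of all members. Its brightest probe, assigned by the array to transcript variant 4, read −0.06 and −0.15 in untreated AECs and 2.24 and 2.26 after OGD. The log2 fold change was 2.35 (SE 0.081, limma adjusted p = 0.000719), or 5.11-fold, and both OGD arrays lay far above both untreated arrays. A second *Wdr33* probe, assigned to variant 1 and 73072 bases farther downstream, read −0.22 and −0.37 before and −1.82 and −1.81 after OGD. It was lower by every pairing of arrays, with a log2 fold change of −1.51 (SE 0.092, limma adjusted p = 0.0012).

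*Fip1l1*, the subunit that helps to recruit the poly(A) polymerase, was also higher with both of its probes. Its brightest probe read 1.36 and 1.38 in untreated AECs and 2.92 and 2.99 after OGD, a log2 fold change of 1.58 (SE 0.079, limma adjusted p = 0.000931). The other read −2.81 and −3.16 against −1.66 and −1.52, a log2 fold change of 1.39 (SE 0.15). Groups did not overlap for either probe. *Cpsf4*, which binds the hexamer together with *Wdr33*, rose by 0.50 and 0.66 with its 2 probes, and *Cpsf3*, the nuclease, by 0.31. The call of *Cpsf3* was lost in 9 of 18 other settings and that of *Cpsf4* in 4, and both turned with control-probe scaling. The large scaffold *Cpsf1* and its partner *Cpsf2* did not pass, at 0.22 (SE 0.11, adjusted p = 0.149) and −0.20 (SE 0.076, adjusted p = 0.0878 in limma). The *Cpsf2* probe read 0.66 and 0.64 in untreated AECs against 0.47 and 0.43 after OGD, the lowest change by a brightest probe in this complex, and passed as lower at −0.35 with the percentile over detected probes (adjusted p = 0.0208).

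All 3 subunits of CFI, which binds UGUA elements and is known to favor distal cleavage sites, were higher (all genes: 37.1%). *Cpsf6*, the larger subunit, read −1.34 and −1.24 in untreated AECs and 0.10 and 0.15 after OGD, a log2 fold change of 1.41 (SE 0.083, limma adjusted p = 0.00115). *Nudt21*, the subunit that binds RNA, rose by 0.76 (SE 0.085), and *Cpsf7*, the alternative large subunit, by 0.70 (SE 0.097). The arrays of the groups did not overlap for any of the 3. *Cpsf7* had the smallest increase, with 2.05 and 2.06 in untreated AECs against 2.67 and 2.85.

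Of the 4 CSTF genes, 2 were higher and 2 lower (all genes: 37.1% and 27.9%). *Cstf1*, which encodes the WD-repeat subunit, is read by probes 1229 bases apart. The upstream one (chr2:172206524-172206583, mm9, plus strand) read 2.04 and 2.04 before and 2.89 and 2.81 after OGD, a log2 fold change of 0.81 (SE 0.080, limma adjusted p = 0.00273). The downstream one (chr2:172207753-172207812, mm9, plus strand) went the other way, from −2.19 and −1.99 to −3.36 and −3.41, a log2 fold change of −1.29 (SE 0.10, adjusted p = 0.00188). No array of one group overlapped the other with either probe. When the mean over probes stood for the gene, the opposite directions left −0.24, and *Wdr33* was at 0.42.

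*Cstf2* encodes the subunit that binds RNA. Its upstream probe (chrX:130610180-130610239, plus strand), assigned to variant 3, read −2.07 and −2.01 against −0.09 and −0.04, a log2 fold change of 1.97 (SE 0.079, limma adjusted p = 0.000766). The brightest and most downstream probe (chrX:130620893-130620952, variant 4) read −0.22 and −0.21 against 0.37 and 0.40, a log2 fold change of 0.60 (SE 0.074), and a probe close to it rose by 0.67. All were higher after OGD, the upstream one most. The retrogene copy *Cstf2t*, by contrast, read 2.30 and 2.46 against 1.45 and 1.70 (log2 fold change −0.81, SE 0.13, adjusted p = 0.00907). *Cstf3*, the scaffold subunit, was lower with both probes, the brightest (chr2:104505308-104505367, variant 1) going from 1.42 and 1.44 to 0.23 and 0.31, a log2 fold change of −1.16 (SE 0.079, adjusted p = 0.00142 in limma). Its upstream probe (chr2:104449520-104449579, variant 3) read 0.54 and 0.38 against −0.12 and −0.19, a log2 fold change of −0.62 (SE 0.097).

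The windows below are 30 bases each of these probes, shown because the upstream probes of *Cstf1* and *Cstf3* hold a signal hexamer, in capitals, and their downstream partners hold none. They are printed 5' to 3' on the strand of the gene. The *Cstf1* upstream window is bases 27 to 56 of its probe, the *Cstf3* upstream window is bases 31 to 60, and the others are bases 1 to 30.
Cstf1 upstream: cattgtcctggtAATAAAgctcagatctac
Cstf1 downstream: acactagcgtttgagccgttgcacacgtcc
Cstf2 upstream: aggtttagaagctgaaggtcagaacgtcag
Cstf2 downstream: tcaacatttttgtaggaaaaagagtgacat
Cstf3 upstream: ttggagttgcaacaacATTAAAacagtttc
Cstf3 downstream: gtacaaaatgacaacgccacatcttgttcc

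AATAAA and ATTAAA, the common forms of the polyadenylation signal written as DNA, were searched in every probe on both strands. Each probe was marked as holding a match or not. On the strand of the gene, 8 of the 70 member probes held at least 1 of them (11.4%), against 16.7% of all 39429 probes. On the opposite strand it was 3 member probes (4.29%), against 6.56%. A match describes the letters of a probe and does not show that a cut was made there.

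None of the 5 genes of cleavage factor II, the scaffold and the terminating nuclease was higher, and 3 were lower (all genes: 37.1% and 27.9%). *Rbbp6*, a ubiquitin ligase that joins the cleavage complex, fell with all 3 probes. The brightest (chr7:130145876-130145935, mm9, plus strand) read −0.46 and −0.36 against −1.72 and −1.74, a log2 fold change of −1.32 (SE 0.082, limma adjusted p = 0.00126), and the most upstream read −1.50 and −1.43 against −3.36 and −3.25 (−1.84, SE 0.087). The remaining one was at −1.24. No OGD array reached an untreated array with any of them. *Clp1*, the RNA kinase of cleavage factor II, changed by −0.89 (SE 0.092, and −0.33 with normexp) and *Xrn2*, the torpedo nuclease that degrades the RNA behind the cut, by −0.38 (SE 0.086). *Sympk*, the scaffold symplekin, was at −0.15 (SE 0.11, adjusted p = 0.273). *Pcf11*, which binds the polymerase tail, had the highest value of this role. Its brightest probe, which was dim, read −5.13 and −5.28 against −4.83 and −4.06, a log2 fold change of 0.76 that did not pass (SE 0.29, adjusted p = 0.0872 in limma). With normexp background correction it was 1.04 and passed as higher (SE 0.14, adjusted p = 0.000205), as it did without OGD replicate 1 (1.14, adjusted p = 0.00677). Without OGD replicate 2 it was 0.37. The other *Pcf11* probe, downstream, read −5.88 and −5.86 against −6.60 and −6.18 and did not pass either (−0.52, adjusted p = 0.0575).

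Of the 5 poly(A) polymerases and poly(A)-binding proteins, 2 were higher and 1 was lower, near the shares of all genes (37.1% and 27.9%). *Papolg*, encoding a nuclear poly(A) polymerase, read −1.34 and −1.42 in untreated AECs and −3.23 and −3.30 after OGD, a log2 fold change of −1.89 (SE 0.083, limma adjusted p = 0.000812). A second, dimmer probe was at −1.47 (SE 0.15), and another was not well above background on any array. The canonical polymerase *Papola* read −1.62 and −2.22 against −2.24 and −1.84, so that the groups overlapped and no change was detected (−0.12, SE 0.27, adjusted p = 0.716). The cytoplasmic tail-binding proteins moved the other way. *Pabpc4* read 0.35 and 0.31 against 1.24 and 1.15 (log2 fold change 0.87, SE 0.081, adjusted p = 0.0025 in limma), and *Pabpc1* rose by 0.84 (SE 0.081). The nuclear protein *Pabpn1* was at −0.25 (SE 0.082, adjusted p = 0.0598). It passed as lower in 6 of 18 other settings, at −0.83 with quantile normalization (adjusted p = 0.00248).

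Of the 3 proteins of the U1 snRNP, which pairs with the 5' splice site and protects transcripts from early cleavage, only *Snrnp70* was higher by limma (all genes: 37.1%). Its probe read 2.76 and 2.82 before and 3.43 and 3.57 after OGD, a log2 fold change of 0.71 (SE 0.090, limma adjusted p = 0.00491). *Snrpa* was at 0.14 (SE 0.074, adjusted p = 0.18 in limma), and it passed as higher by the methods' t-test after adjustment. *Snrpc* read 2.15 and 1.67 against 2.29 and 1.24. Its replicates differed by more than its groups, and its value of −0.15 has an SE of 0.42 (adjusted p = 0.779 in limma).

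The 11 SR and Tra2 proteins bind exons and recruit the splicing machinery, and 8 of them were higher and 2 lower (all genes: 37.1% and 27.9%). *Srsf5* led them, from 1.71 and 1.75 to 3.24 and 3.38, a log2 fold change of 1.58 (SE 0.093, limma adjusted p = 0.00115). *Srsf7* read 2.15 and 2.17 against 3.13 and 3.28 with its brightest probe (1.05, SE 0.093), and *Srsf4* read 2.10 and 2.19 against 3.16 and 3.21 (1.04, SE 0.083). In all of these both OGD arrays were above both untreated arrays. *Srsf2* read 0.53 and 0.46 against 1.45 and 1.48 with its brightest probe (0.97, SE 0.079), and a dimmer probe went from −0.70 and −0.64 to 0.73 and 0.39 (1.23, SE 0.14, adjusted p = 0.00409 in limma). Smaller increases by the brightest probe were found for *Srsf9* (0.63), *Tra2a* (0.55), *Srsf6* (0.27) and *Srsf10* (0.27). The last 2 were close to the limit, at adjusted p of 0.0374 and 0.0461 in limma, and lost their calls in 9 and 12 of 18 other settings. *Tra2a* stood at −0.019 with quantile normalization.

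*Srsf1*, the founding SR protein, was lower with all 3 tested probes. The brightest (chr11:87864550-87864609, mm9, plus strand) went from 1.90 and 1.95 to 1.32 and 1.56 (−0.49, SE 0.12, limma adjusted p = 0.0252). Its call was lost in 4 of 18 other settings. The probes nearer the end of the gene went from 1.44 and 1.51 to 0.43 and 0.38 (−1.07, SE 0.080) and from 0.13 and 0.11 to −1.05 and −1.16 (−1.22, SE 0.084). Both were below 0.5-fold of the untreated level. *Tra2b* had the lowest value among the brightest probes of the role, read by its only probe, from −5.15 and −5.61 to −6.26 and −6.26 (−0.88, SE 0.18, adjusted p = 0.0166 in limma). That probe was dim, and with normexp background correction its log2 fold change was 0.62 (adjusted p = 0.000827), so its direction is not settled. *Srsf3*, which is known to affect the choice of polyadenylation site, passed with its most downstream probe, from −0.26 and −0.21 to −1.07 and −1.03 (−0.82, SE 0.077, adjusted p = 0.00254). Its most upstream probe read 2.30 and 2.24 against 2.12 and 2.04 (−0.19, adjusted p = 0.109). Its brightest probe was at −0.33 (SE 0.16, adjusted p = 0.134), at −0.63 with quantile normalization (adjusted p = 0.022) and at −0.52 without OGD replicate 1 (adjusted p = 0.0155), where it passed.

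The elongation kinases and their regulator held the largest decrease of all members, with 3 of 4 higher and 1 lower (all genes: 37.1% and 27.9%). *Hexim1*, which keeps the elongation factor P-TEFb inactive, read 0.64 and 0.54 in untreated AECs and −1.81 and −1.81 after OGD. The log2 fold change was −2.40 (SE 0.081, limma adjusted p = 0.000719), and in every setting tried it lay between −3.69 and −2.20. The P-TEFb subunits themselves were higher, *Cdk9* from 2.52 and 2.55 to 3.37 and 3.16 (0.73, SE 0.11) and the cyclin *Ccnt1* from −1.75 and −1.74 to −0.94 and −1.15 (0.70, SE 0.11, adjusted p = 0.00785 in limma). A dim *Ccnt1* probe 498 bases downstream went from −4.68 and −4.67 to −2.67 and −3.21 (1.74, SE 0.21).

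*Cdk12*, a kinase of the polymerase tail that is known to restrain intronic polyadenylation, was read by 3 probes. The most upstream (chr11:98107958-98108017, mm9, plus strand), assigned to variant 3, was dim and read −6.17 and −6.41 against −5.13 and −5.26, or 2.14-fold (limma adjusted p = 0.00355). The brightest lay between the others (chr11:98112289-98112348, variant 1) and read −2.10 and −2.05 against −1.20 and −1.09 (0.93, SE 0.087, adjusted p = 0.00248). The most downstream (chr11:98114399-98114458, variant 1) was lower, from −2.20 and −2.19 to −2.77 and −2.60 (−0.49, SE 0.096, adjusted p = 0.0151). Groups did not overlap with any of the 3, and the change of sign fell between the brightest and the last probe. The windows below show 30 bases of each on the strand of the gene, and the middle one holds a signal hexamer, in capitals, within bases 31 to 60 of its probe.
Cdk12 upstream: atctgtctgtgatctgctgttattagcaga
Cdk12 middle: tgtacatacctttttccaAATAAAtcatcc
Cdk12 downstream: taatagcagatttgcttaacccagtttctt

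Within-gene differences were then tested directly, by taking on each array the most upstream probe of a gene minus its most downstream probe, in which the scale of the array cancels. Of the 18 members with such a pair, the upstream probe rose more (or fell less) in 10 and the downstream probe in 3, in a limma fit over all 4806 genes with a pair and an adjusted p under 0.05. Over all genes the shares were 44.2% and 6.33%, so unequal change in favor of the upstream probe was common on these arrays. The median difference was 0.56 in the members and 0.36 over all genes, and it was above 0 in 72.2% of the members against 3604 of the 4806 genes. Opposite calls, with the upstream probe higher and the downstream probe lower, were made for 3 members (*Wdr33*, *Cstf1* and *Cdk12*) and for 10.3% of all genes. Without either untreated array in turn, 7 of the members still passed in the upstream direction and 1 in the downstream direction, and over all genes 1381 to 1405 and 138 to 165.

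**Figure D2:**
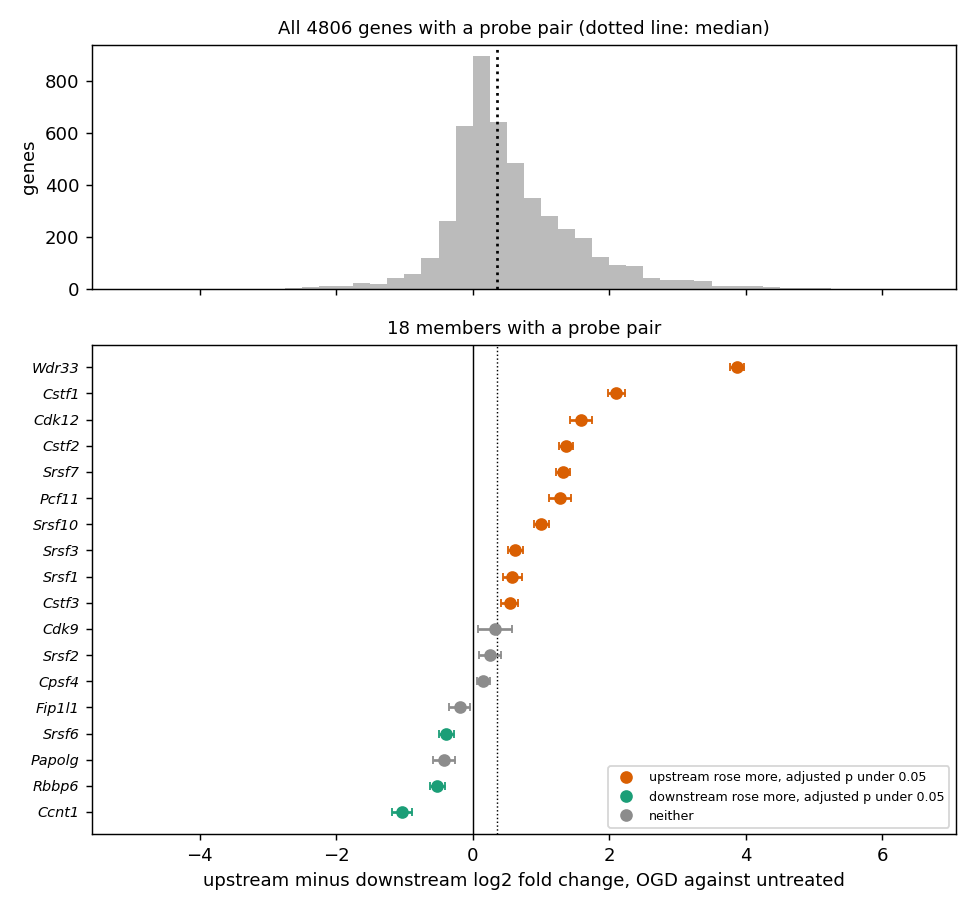
Upstream minus downstream log2 fold change (OGD against untreated). The upper panel counts all 4806 genes with a probe pair, and the lower panel shows the 18 members with standard errors, colored by direction where the limma adjusted p was under 0.05. The dotted line is the median of all genes (0.36). *Wdr33* (3.87) and *Cstf1* (2.11) lie in the right tail, and *Ccnt1* (−1.04) lies farthest to the left among the members.

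In untreated AECs the *Wdr33* probes differed by 0.17 and 0.23, and after OGD by 4.06 and 4.07. This change of 3.87 (SE 0.10, adjusted p = 0.000137 in limma) was the 48th largest of the 4806 genes. For *Cstf1* the difference went from 4.23 and 4.03 to 6.25 and 6.22, a change of 2.11 (SE 0.12, adjusted p = 0.000319), and for *Cdk12* from −3.97 and −4.21 to −2.36 and −2.65, a change of 1.59 (SE 0.16). With all probes on each side of the middle of their span in place of the outermost ones, the *Cdk12* change was 0.88. In these 3 genes the replicates lay closer together than the groups.

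The differences of *Cstf2* and *Srsf7* changed by 1.37 (SE 0.10) and 1.32 (SE 0.10, adjusted p = 0.00062 in limma). The *Srsf7* probes lie only 436 bases apart, on the minus strand (chr17:80600741-80600800, variant 6, and chr17:80600305-80600364, variant 1, mm9), and the downstream one, at −1.13 and −1.10 against −1.46 and −1.32, did not pass by itself (−0.27, adjusted p = 0.0592). For *Srsf10* the change was 1.00 (SE 0.11), the upstream probe of variant 2 going from −2.32 and −2.42 to −1.57 and −1.56 while the downstream probe stood at −1.83 and −1.81 against −2.02 and −2.02. For *Pcf11*, whose probes did not pass one by one, the difference went from 0.75 and 0.58 to 1.77 and 2.12, a change of 1.28 (SE 0.16, adjusted p = 0.00282 in limma). With normexp background correction, which acts on dim probes, it was 0.21 and did not pass. Changes of 0.63 for *Srsf3*, 0.58 for *Srsf1* and 0.54 for *Cstf3* completed the 10, and these 3 did not pass when either untreated array was left out. The *Srsf3* change was 0.38 with all probes on each side of the middle of their span and 0.37 with quantile normalization. It passed in both.

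The downstream probe rose more in *Ccnt1* (a change of −1.04, SE 0.15, adjusted p = 0.00401 in limma), where it is the dim one. It also did so in *Srsf6* (−0.38, SE 0.10), from 1.75 and 1.70 to 1.37 and 1.31, and it fell less in *Rbbp6* (−0.52, SE 0.11), which did not pass with normexp (−0.14) or with all probes on each side of the middle (−0.22). *Srsf6* and *Rbbp6* did not pass when either untreated array was left out. With *Srsf6* the upstream probe read 1.46 and 1.43 against 1.71 and 1.72 and the downstream one −0.29 and −0.27 against 0.34 and 0.41, so both rose. The remaining pairs, *Cdk9*, *Srsf2*, *Cpsf4*, *Fip1l1* and *Papolg*, did not pass, with changes between −0.42 and 0.33. With normexp, *Papolg* (−0.93) and *Cpsf4* (0.46) passed. Without OGD replicate 2, *Cdk9* (0.67), *Srsf2* (0.44) and *Papolg* (−0.54) passed and *Srsf6* did not, which made 12 pairs in the upstream and 3 in the downstream direction.

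**Figure D3:**
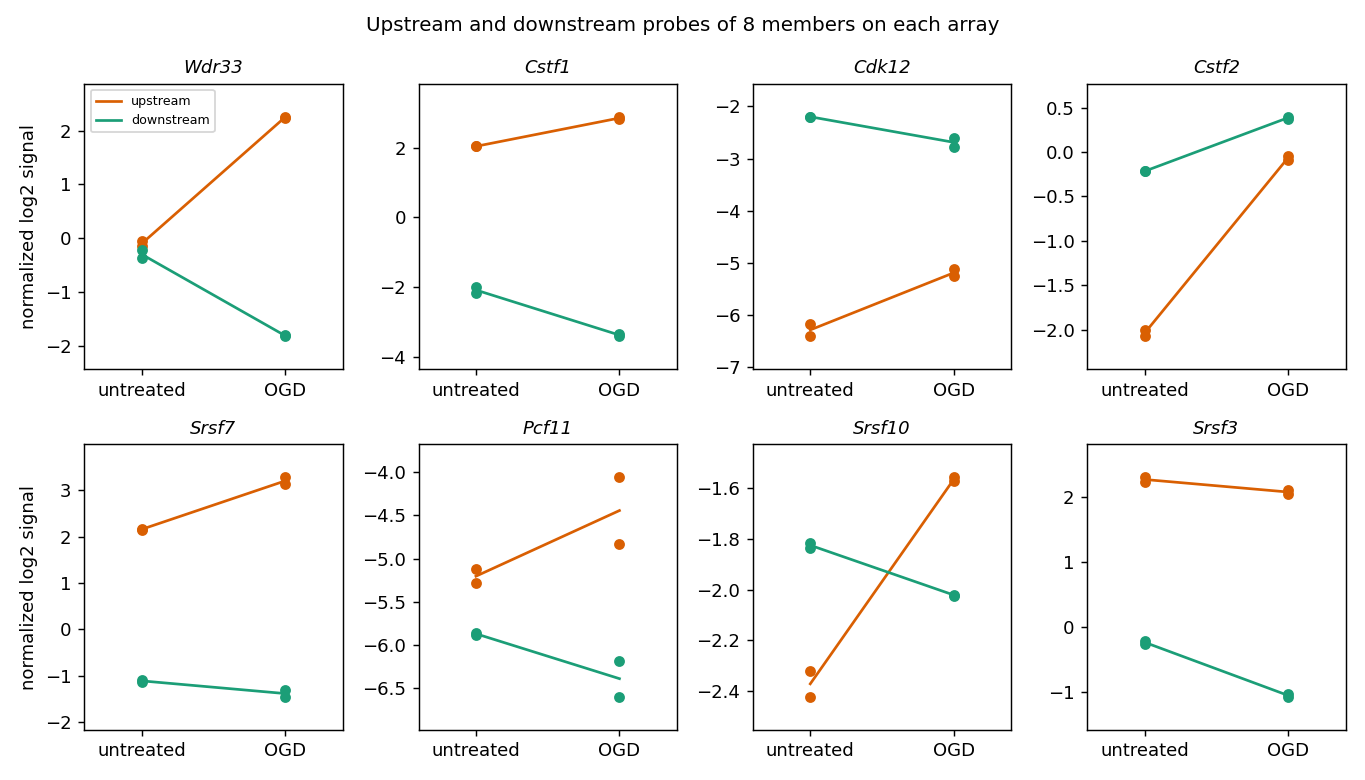
Normalized log2 signal of the most upstream and most downstream probe of 8 members on each array (points, 2 untreated and 2 OGD), with lines joining the group means. Vertical scales differ between panels. In *Wdr33*, *Cstf1*, *Cdk12*, *Srsf7*, *Pcf11* and *Srsf10* the upstream line rises and the downstream line falls, and both changes passed in the first 3. The lines move apart in *Wdr33* and *Cstf1* and approach each other in *Cdk12*. Both probes of *Cstf2* rise and both of *Srsf3* lie lower after OGD.

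The array names the probes of 11 of the 18 pairs by different transcripts and those of 7 by the same transcript. Of the former, 8 passed in the upstream direction and 2 in the downstream direction, with a median change of 1.28, against 48.3% and 9.42% of all 1825 gene pairs of that kind (median 0.47). Of the latter it was 2 and 1, with a median of 0.26, against 41.6% and 4.43% of 2981 pairs (median 0.32). In distance, the pair passed in the upstream direction in 8 of 13 members with probes over 2000 bases apart (median change 0.58), against 54.6% of the 2786 genes of that kind (median 0.60). It did so in 2 of 5 members with closer probes (0.26), against 29.8% of 2020 genes (0.18). The downstream direction passed in 1 of the 13 and in 2 of the 5, against 7.07% and 5.3% of all genes. These counts are descriptions of few genes, and the exons or introns in which the probes lie were not determined, because no annotation of mm9 was used here.

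Other genes of RNA processing, in lists of 110 genes of which 109 were tested, gave 51 higher and 24 lower, against 37.1% and 27.9% of all genes. Of 18 Sm and U2 snRNP proteins 14 were higher and 0 lower, with a median log2 fold change of 0.64, and *Snrpd1*, an Sm ring protein, was the only one past 2-fold (1.00, SE 0.095, limma adjusted p = 0.0026). Of 19 hnRNP proteins, which coat nascent RNA, 15 were higher and 1 lower, with a median of 0.81. The largest were *Hnrnpc* (2.60-fold) and *Hnrnpk* (2.55-fold). Among 20 other splicing regulators 10 were higher and 4 lower. *Luc7l*, a U1-associated protein, had processed signals of 1593 and 1580 in untreated AECs and 5277 and 4120 after OGD, a log2 fold change of 2.93 (SE 0.096, adjusted p = 0.000719 in limma). *Srrm1*, a splicing coactivator, was at 1.48, whereas *Luc7l3* and *Rbm10* were at −1.48 and −1.36.

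Of 11 subunits of Integrator, which cleaves snRNAs and short nascent transcripts, 1 was higher and 6 were lower (all genes: 37.1% and 27.9%), with a median of −0.61. *Ints3* had processed signals of 1498 and 1259 against 177 and 60.7, a log2 fold change of −2.35 whose error was large (SE 0.50, limma adjusted p = 0.0191). *Ints6* was not well above background after OGD and was at least 1.97-fold lower (adjusted p = 0.0128), and *Ints12* was the one that rose (1.26). Of 19 genes of deadenylation and decay 4 were higher and 9 lower, with a median of −0.40. Here *Cnot4* (1.64) and *Btg1* (1.54) rose most, and *Upf1* (−1.39), the helicase of nonsense-mediated decay, and the deadenylase *Pan2* (−1.25) fell most. Elongation and termination factors were spread around 0 (7 of 22 higher, 4 lower, median 0.11), from *Wdr82* (−1.12) to the cyclin *Ccnt2* (1.30). With quantile normalization 29 of the 109 were higher and 36 lower, and with scaling on the control probes 2 and 92. Shares over all genes were not counted in these settings.

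**Figure D4:**
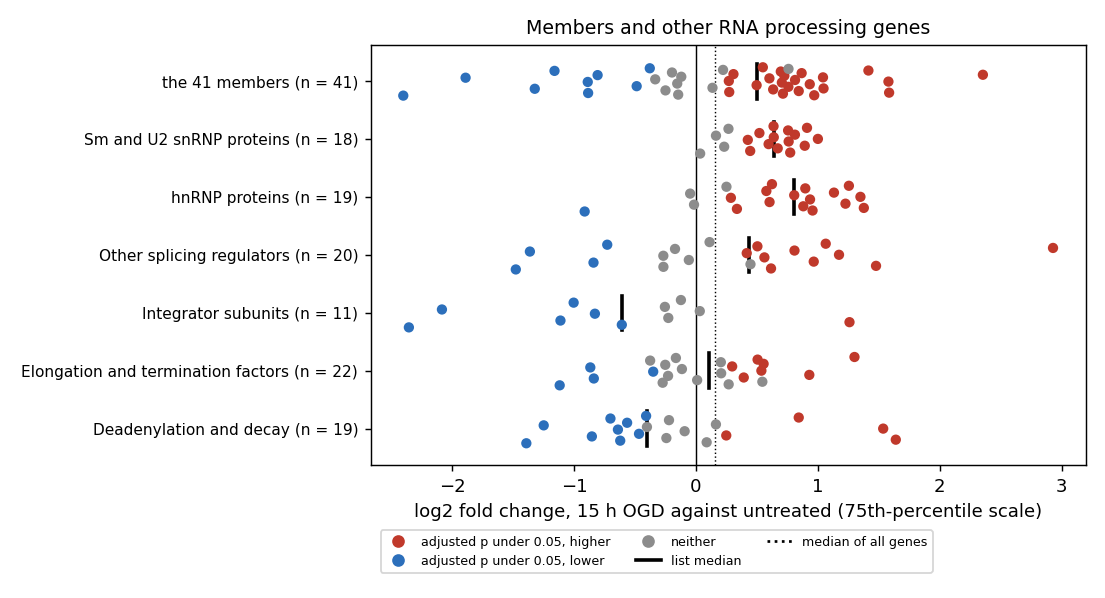
Log2 fold change (OGD against untreated, 75th-percentile scale) of the 41 members and of 6 lists of other RNA processing genes, 1 point per gene by its brightest probe. Colors mark genes past an adjusted p of 0.05 in limma, thick bars are list medians and the dotted line is the median of all genes tested (0.16). The hnRNP proteins have the highest median (0.81) and Integrator the lowest (−0.61). The point of *Ints6* (−2.08) is its measured value, from signals not well above background after OGD. The bound on its decrease is smaller, at least 1.97-fold.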

How the data were processed

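AECs, untreated (2 arrays) or after 15 h of OGD (2 arrays), were grouped by the labels. The authors deposited, for each spot, the processed signal, an intensity after background subtraction within each array by the Feature Extraction software (version 11.5.1.1 per the submitters' processing notes). The deposited series table repeats this intensity (largest difference 0 on each array). The study's methods name 75th-percentile normalization, an unpaired test with Benjamini–Hochberg adjustment and a limit of 10-fold.

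Here control spots and outlier spots were left out, spots of a probe were averaged on the log2 scale of the deposited signal, and each array's 75th percentile was subtracted. A probe was tested if either group had it well above background on both of its arrays (28163 probes, after leaving out 99 with no value on an array). The test was that of limma (version 3.58.1, with R 4.3.3; lmFit, eBayes), in place of the methods' t-test because only 2 residual degrees of freedom remain (limma's prior added 1.85). Benjamini–Hochberg adjustment ran over all probes, or over the 4806 genes for pairs of outermost probes well above background on all arrays. An exact permutation test of 2 arrays against 2 cannot give a two-sided p under 0.333. A gene was read by its brightest probe. Strand was taken from the order of the mm9 coordinates and was that of the RefSeq table (GRCm38) for 66 of 66 member probes. All 65 RefSeq accessions of member probes were found there under the same symbol, and 5 probes carry Ensembl transcripts. Transcript variants are those of the array's descriptions. Replicates correlated at r = 0.998 (untreated) and 0.995 (OGD) across probes, which are not independent, and for member probes differed with an SD of 0.17 and 0.23. On arrays, their number and the signal over background limit precision. The share of non-control spots well above background was 73.0% to 73.7% untreated and 64.5% to 66.2% after OGD, and 0 spots were saturated. The steps were tested on simulated data. Counts and figures used pandas 2.3.3, numpy 2.4.6 and matplotlib 3.10.9 under Python 3.11.15.

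The members, the lists of other RNA processing genes and markers, and the tests were chosen with earlier results of these data known. All 41 members are named. Values on every array are given for the extremes of each role, members past 2-fold with any probe and members whose pair passed. From each other list at most 2 increases and 2 decreases past 2-fold are named. Alternatives were the methods' t-test, an intensity trend with robust prior, a replicate block, normexp (offset 50), quantile, median, detected-probe and spike-in scaling, other filters on dim probes, the series table, keeping outlier spots, the mean over probes, the probes on each side of the middle of their span, older symbols (0 spots found) and each array left out in turn.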

Additional observations from a re-analysis of the deposited data

How the results depend on the processing

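Scaling on spiked-in control probes changed most. The members' median was −0.79, with 1 over 2-fold higher and 19 over 2-fold lower, and these turned negative: *Cpsf1* (−1.07), *Cpsf3* (−0.98), *Cpsf4* (−0.79), *Cpsf7* (−0.58), *Nudt21* (−0.53), *Cstf1* (−0.48), *Cstf2* (−0.69), *Pcf11* (−0.53), *Pabpc1* (−0.45), *Pabpc4* (−0.42), *Snrnp70* (−0.57), *Snrpa* (−1.15), *Srsf2* (−0.32), *Srsf4* (−0.25), *Srsf6* (−1.01), *Srsf7* (−0.24), *Srsf9* (−0.65), *Srsf10* (−1.02), *Tra2a* (−0.74), *Cdk12* (−0.35), *Cdk9* (−0.56) and *Ccnt1* (−0.59). Counts were 2 higher and 34 lower for members and 2 and 92 for the other lists. This shift is the scale itself. Quantile normalization gave a members' median of 0.12, 0.14 above that of all genes (0.34 as reported), 29 other genes higher and 36 lower, *Snrpa* at −0.19, *Tra2a* at −0.019 and the *Fip1l1* pair at 0.12. The percentile over detected probes gave a median of 0.34 and *Snrpa* at −0.017. The mean over probes gave 0.31, 0.15 above all genes, and *Cstf1* at −0.24. Normexp left 0.036 above all genes and turned *Papola* (0.11) and *Tra2b* (0.62), no filter left 0.086 and the filter on all 4 arrays 0.26. The methods' t-test called 14 other genes lower after adjustment. The cause was not tested. Leaving out each array gave medians of 0.38 to 0.56, 0.20 to 0.45 above all genes, 13 to 21 members higher, 30 to 53 other genes higher and 13 to 30 lower, and 1 to 3 member pairs in the downstream direction. Over all genes it gave 1381 to 2464 pairs in the upstream and 138 to 453 in the downstream direction. It turned *Papola* (range −0.42 to 0.18, above 0 without OGD replicate 1 or untreated replicate 1), *Snrpc* (−0.67 to 0.38, above 0 without OGD replicate 2 or untreated replicate 1) and the *Cdk9* pair (−0.017 to 0.67, below 0 without OGD replicate 1). Same-numbered samples shared only a number (correlation of deviations −0.057), and with the replicate number as a block 20 members were higher and 9 lower, with 10 and 2 member pairs called. Of the other members' values, 619 single values kept direction and side of the limit, 64 fell below it and 23 rose above it, and for pairs 140, 15 and 5. The number of arrays and the dim probes (*Pcf11*, *Tra2b*) limit these values.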

Other observations

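Of the 109 other RNA processing genes tested, 49 had an upstream and a downstream probe. The upstream probe rose more in 20 of them and the downstream probe in 4 (limma, adjusted p under 0.05), against 44.2% and 6.33% of all genes with a pair. The median change was 0.38, and 36 of the 49 changes were above 0, against 3604 of 4806 over all genes.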
